A study of Homo sapiens with 6 samples.

Results

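The keratins described here are 10 genes of simple and basal epithelium, KRT8, KRT18, KRT7, KRT19, KRT17, KRT16, KRT15, KRT23, KRT80 and KRT81, of 43 keratin genes and 23524 rows in the expression table. They were chosen by name as keratins of liver, duct and basal epithelium, with their FPKM in these control and EFTUD2 libraries already known from earlier results, so their values are given as a description with no test. The cells were Hep G2, an established human hepatocellular carcinoma line. RNA sequencing was done on 3 control libraries, from cells carrying the empty vector, and 3 EFTUD2 libraries, from cells carrying the EFTUD2 gene. EFTUD2 is a GTPase of the U5 small nuclear ribonucleoprotein of the spliceosome. The study's text describes the overexpressing cells as stable and made with lentivirus, so both groups are vector-carrying derivatives of 1 cell line, with no untreated parental library among them. The study describes its data in general as coming from independent experiments, but neither the labels nor the RNA sequencing methods say whether these replicates were separate cultures. Any p-value below measures only the spread between these libraries, which may be technical.

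Keratins are the intermediate filament proteins of epithelial cells. A filament is built from pairs of 1 acidic type I and 1 basic type II keratin, so that KRT18 and KRT19 of type I assemble with KRT8 or KRT7 of type II. Hepatocytes normally make KRT8 and KRT18 alone, bile duct cells add KRT7 and KRT19, and basal and squamous epithelia make KRT5, KRT14 and KRT15, with KRT16 and KRT17 added in wounds and tumours. Filaments are tied to desmosomes and hemidesmosomes by plakin proteins, and they give the cell mechanical strength.

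Among the keratins of this line, KRT8 and KRT18 kept the highest levels in both groups, KRT19 and the low KRT15 were at about 0.40 of their control mean with EFTUD2, and KRT17 was higher in every EFTUD2 library, by factors that ranged from 6.57 to 95.6. KRT7 was far higher in EFTUD2 replicates 1 and 2 and at the control level in replicate 3. All 10 genes passed the filter of a mean of at least 0.1 FPKM (fragments per kilobase of transcript and per unit of sequencing depth, a level corrected for gene length). KRT16 did so only through its EFTUD2 values. The EFTUD2 libraries lay above all controls for 1 of the 10 keratins, KRT17, while 7.92% of the 17222 genes tested did so. They lay below all controls for 4, KRT18, KRT19, KRT23 and KRT15, against 19.4% of all genes, and the groups overlapped for the other 5. These counts are of FPKM as given, with no further scaling. Because these are the values the genes were selected on, nothing is read from the comparison with those percentages. The median log2 difference over the 10 keratins, EFTUD2 minus control on the log2(FPKM + 1) scale, was -0.26, beside -0.07 over all genes tested.

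The files give no counts, so the depth behind each level is unknown. EFTUD2 itself was at 41.1, 54.35 and 46.3 FPKM in control replicates 1 to 3, against 106.6, 102.9 and 109.5 FPKM in EFTUD2 replicates 1 to 3, which places each library with its label. EFTUD2 replicate 3 stood apart from its group. Over all genes tested, its log2 values differed from those of replicates 1 and 2 with an SD of 0.51 and 0.60, while replicates 1 and 2 differed from each other with an SD of 0.23. All 13 hepatocyte markers examined, albumin among them, had a control mean of at least 1 FPKM, and their summed level was 11122 to 17243 FPKM in the controls and 14810 to 21492 FPKM in the EFTUD2 libraries. With limma on log2(FPKM + 1), 0% of the 17222 genes passed a Benjamini-Hochberg adjusted p of 0.05, the lowest adjusted p being 0.126. At an unadjusted p under 0.05 there were 757 genes higher with EFTUD2 (4.4%) and 1361 lower (7.9%). Without EFTUD2 replicate 3, 131 genes passed the adjusted threshold.

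**Figure D1:**
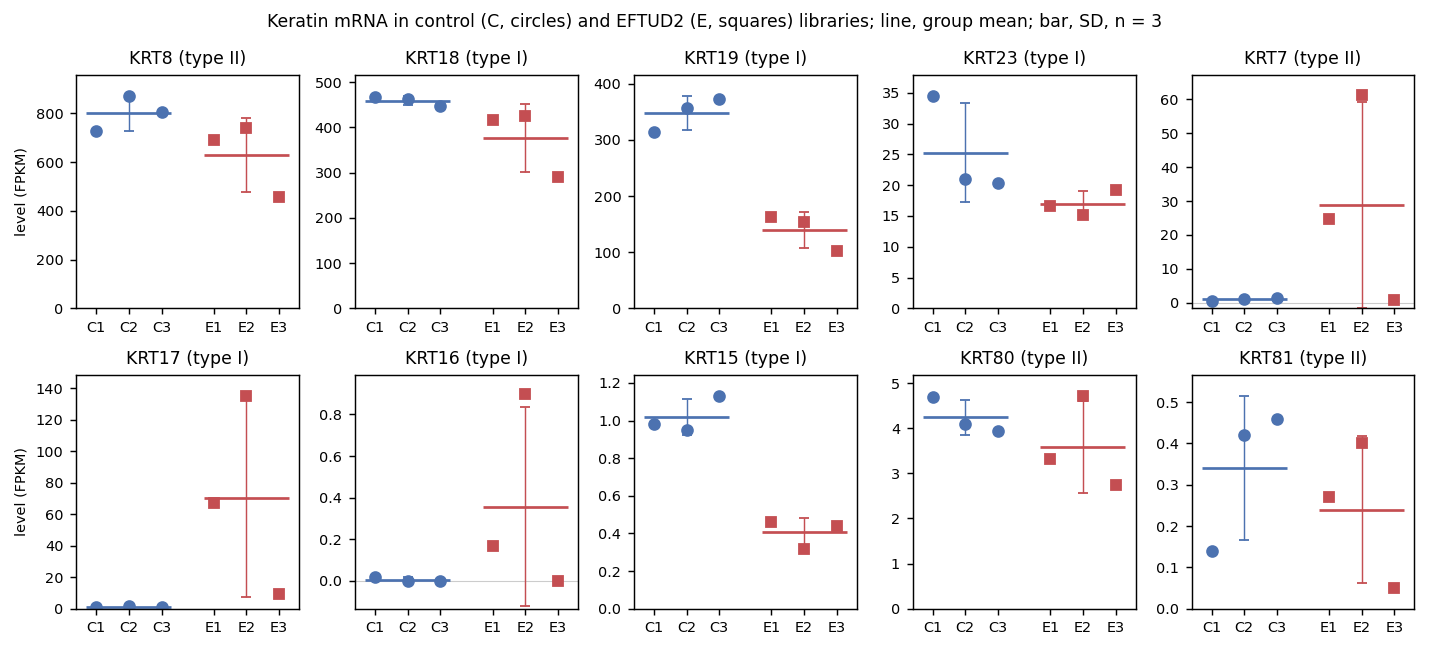
FPKM of each of the 10 keratins (1 panel each, linear axis with its own range) in the 3 control and 3 EFTUD2 libraries; points are libraries, horizontal lines group means and vertical bars the SD. KRT17 lies above all controls in every EFTUD2 library, KRT7 only in replicates 1 and 2, and KRT19 and KRT15 lie below all controls.

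KRT8 and KRT18 form the filament pair of hepatocytes and of simple epithelia in general. KRT8 was at 727.0, 869.7 and 804.6 FPKM in control replicates 1, 2 and 3, against 691.2, 740.6 and 456.2 FPKM in EFTUD2 replicates 1, 2 and 3. EFTUD2 replicate 3 was the lowest of all 6 libraries, at 0.57 of the control mean, and the groups overlapped, since EFTUD2 replicate 2 exceeded control replicate 1. The means were 800.45 ± 71.4 FPKM in controls and 629.3 ± 152 FPKM with EFTUD2 (SD, n = 3 each), a log2 difference of -0.37 (SE 0.21).

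KRT18 was at 468.2, 462.4 and 447.9 FPKM in the controls, against 415.6, 424.5 and 289.5 FPKM in the EFTUD2 libraries. The groups did not overlap, and EFTUD2 replicate 3 was again the lowest. Its log2 difference was -0.31 (SE 0.17), or -0.13 without EFTUD2 replicate 3, while that of KRT8 was -0.16 without that library. The KRT8 to KRT18 ratio of FPKM was 1.55, 1.88 and 1.80 in controls and 1.66, 1.74 and 1.58 with EFTUD2, so the EFTUD2 values lay within the control range. Both genes were among the most abundant transcripts of the line. KRT8 ranked 51st to 72nd of all rows in the controls and 80th to 135th with EFTUD2, and KRT18 ranked 114th to 122nd and 134th to 184th. In bulk RNA of this kind, fewer cells that make a keratin and less of its RNA per cell cannot be told apart.

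KRT19, the smallest type I keratin and a marker of bile duct and progenitor cells, was the next most abundant. It was at 314.1, 357.7 and 372.65 FPKM in control replicates 1, 2 and 3, against 163.0, 153.5 and 102.5 FPKM in EFTUD2 replicates 1, 2 and 3. Every EFTUD2 library was below every control. The group means of 348.2 ± 30.4 and 139.7 ± 32.5 FPKM (SD, n = 3 each) differed 2.49-fold, a log2 difference of -1.34 (SE 0.19), and without EFTUD2 replicate 3 the difference was -1.13. In rank, KRT19 went from 145th to 154th of all rows in the controls to 328th to 565th with EFTUD2. Set against KRT18, the KRT19 level was 0.671, 0.774 and 0.832 in controls and 0.392, 0.362 and 0.354 with EFTUD2. The lower level of EFTUD2 replicate 3 thus appeared in KRT19 and KRT18 alike, and their ratio was close to the same in all 3 EFTUD2 libraries (0.759 ± 0.0816 in controls and 0.369 ± 0.0202 with EFTUD2).

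KRT7, the type II keratin of ducts and glandular epithelium, did not share the direction of KRT19. Its level was 0.61, 0.95 and 1.34 FPKM in the controls and 24.7, 61.2 and 0.78 FPKM in EFTUD2 replicates 1, 2 and 3. Replicates 1 and 2 were at 25.5 and 63.3 times the control mean, whereas replicate 3 was at 0.81 of it and fell inside the control range. The mean with EFTUD2, 28.9 ± 30.4 FPKM, had an SD as large as itself, against 0.967 ± 0.365 FPKM in controls (n = 3 each). The log2 difference was 2.87 (SE 1.19), and 4.36 without EFTUD2 replicate 3. KRT7 ranked 11782nd to 13769th of all rows in the controls, and 3052nd, 1166th and 12845th in EFTUD2 replicates 1, 2 and 3.

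Of the basal and stress keratins, KRT17 differed most. KRT17 is a type I keratin of basal appendage cells that is also made in wounded skin and in carcinomas. It was at 1.12, 1.80 and 1.32 FPKM in controls, against 66.9, 135.1 and 9.29 FPKM in EFTUD2 replicates 1, 2 and 3. All EFTUD2 libraries were higher than all controls, at 47.3, 95.6 and 6.57 times the control mean, but they also differed among themselves, replicate 2 being 14.5 times replicate 3. The log2 difference was 4.25 (SE 0.86), and 5.33 without EFTUD2 replicate 3.

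The excess over the control mean was graded in a like way for KRT17 and KRT7 in EFTUD2 replicates 1 and 2. Replicate 1 held 0.490 of the KRT17 excess of replicate 2 and 0.394 of its KRT7 excess. Replicate 3 held 0.059 of the KRT17 excess of replicate 2 and no KRT7 excess. Without EFTUD2 replicate 3, the EFTUD2 libraries lay above all controls for 3 of the 10 keratins, KRT7, KRT17 and KRT16, against 14.7% of all genes tested, and below all controls for the same 4 as before, against 25.2%. KRT16 passed the filter only through EFTUD2 replicates 1 and 2, and nothing is read from these counts.

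KRT16, which pairs with the KRT6 keratins in wounded and hyperproliferative epidermis, was close to undetected. It was listed at 0.02, 0 and 0 FPKM in the controls, against 0.17, 0.90 and 0 FPKM in EFTUD2 replicates 1, 2 and 3. The value in EFTUD2 replicate 2 was the highest, that in replicate 3 was 0, and the groups overlapped, so no fold is given. KRT15, a keratin of basal keratinocytes and hair follicle stem cells, was at 0.98, 0.95 and 1.13 FPKM in controls, against 0.46, 0.32 and 0.44 FPKM with EFTUD2. The groups did not overlap, and EFTUD2 replicate 3 was not apart from its group. The control mean of 1.02 ± 0.0964 FPKM was 2.51 times the EFTUD2 mean of 0.407 ± 0.0757 FPKM (SD, n = 3 each), a log2 difference of -0.52 (SE 0.10) on a scale that understates the change of such a low gene.

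KRT23, KRT80 and KRT81 are known from other epithelia. KRT23, a type I keratin of gastrointestinal epithelium, was at 34.5, 20.95 and 20.4 FPKM in controls, against 16.7, 15.2 and 19.1 FPKM with EFTUD2. The groups did not overlap, but the highest EFTUD2 library was close to the lowest control, and control replicate 1 stood above its group. KRT80, a type II keratin found in most epithelia near desmosomes, was at 4.68, 4.09 and 3.94 FPKM in controls, against 3.31, 4.71 and 2.74 FPKM with EFTUD2. EFTUD2 replicate 2 was the highest of all 6 libraries, so the groups overlapped. KRT81, a hair keratin, was at 0.14, 0.42 and 0.46 FPKM in controls, against 0.27, 0.40 and 0.05 FPKM with EFTUD2, again overlapping. The log2 differences were -0.51 (SE 0.21) for KRT23, -0.21 (SE 0.18) for KRT80 and -0.11 (SE 0.15) for KRT81. That of KRT23 was -0.27 without control replicate 1, that of KRT80 was -0.08 without EFTUD2 replicate 3 and -0.38 without replicate 2, and that of KRT81 was 0.0015 without EFTUD2 replicate 3.

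**Figure D2:**
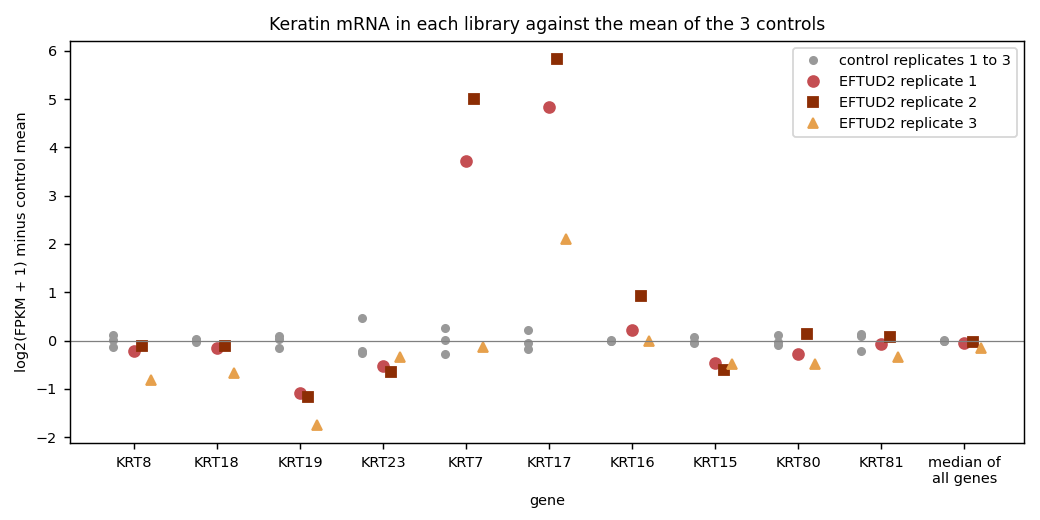
Log2(FPKM + 1) of each keratin in each library minus the mean of the 3 controls; grey points are the controls, coloured points EFTUD2 replicates 1, 2 and 3, and the last column is the median over all genes tested (-0.05, -0.04 and -0.15 in the EFTUD2 libraries). KRT8 and KRT18 sit near that median in replicates 1 and 2 and at -0.81 and -0.66 in replicate 3, KRT19 lies between -1.09 and -1.75, and KRT7 runs from -0.13 in replicate 3 to 3.72 in replicate 1 and more in replicate 2.

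Per unit length, the order of the keratins in the controls was KRT8, KRT18, KRT19, KRT23, KRT80, then KRT17, KRT15 and KRT7, then KRT81 and KRT16. All neighbours in that order were separated over the control libraries except KRT17 and KRT15, and KRT15 and KRT7, whose values overlapped between libraries. Within each control library KRT17 was still above KRT15. With EFTUD2 the order was KRT8, KRT18, KRT19, KRT17, KRT7, KRT23, KRT80, KRT15, KRT16 and KRT81. This order is of group means, which EFTUD2 replicates 1 and 2 carry for KRT17 and KRT7. In EFTUD2 replicate 3 KRT17 was below KRT23, and KRT7 was below KRT80. The neighbours KRT19 and KRT17, KRT17 and KRT7, and KRT7 and KRT23 overlapped between libraries, as did KRT15 and KRT16, and KRT16 and KRT81. Within each EFTUD2 library, however, KRT19 was above KRT17 and KRT17 above KRT7. The order of the other overlapping neighbours was not the same in every EFTUD2 library.

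The 10 keratins made up 98.6% to 99.2% of the FPKM of all 43 keratin genes in every library. The sum over all keratins was 1563, 1732 and 1666 FPKM in the controls and 1393, 1549 and 893 FPKM in EFTUD2 replicates 1, 2 and 3. EFTUD2 replicate 3 was the lowest by a wide margin, and EFTUD2 replicates 1 and 2 were each below the control mean. KRT8 held 46.5% to 50.2% of the keratin FPKM in controls and 47.8% to 51.1% with EFTUD2, and KRT18 held 26.7% to 29.95% and 27.4% to 32.4%. The share of KRT19 was 20.1%, 20.7% and 22.4% in controls and 11.7%, 9.91% and 11.5% with EFTUD2, in all 3 EFTUD2 libraries alike. KRT17 made up 0.0717% to 0.104% in the controls and 4.80%, 8.72% and 1.04% in EFTUD2 replicates 1, 2 and 3. KRT7 made up 0.0390% to 0.0804% in the controls and 1.77%, 3.95% and 0.0874%.

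Type II and type I keratins were summed separately, since filaments need both. The type II to type I ratio of FPKM was 0.882, 1.02 and 0.947 in the controls and 1.07, 1.09 and 1.06 with EFTUD2. Every EFTUD2 library was thus above every control, by little, and the EFTUD2 libraries were close together (0.950 ± 0.0698 and 1.07 ± 0.0136, SD, n = 3 each). The type I sum was 831 to 857 FPKM in controls and 433 to 742 FPKM with EFTUD2, and the type II sum was 732 to 875 FPKM and 460 to 807 FPKM. These ratios are of transcript levels only, and no protein was measured in these files.

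**Figure D3:**
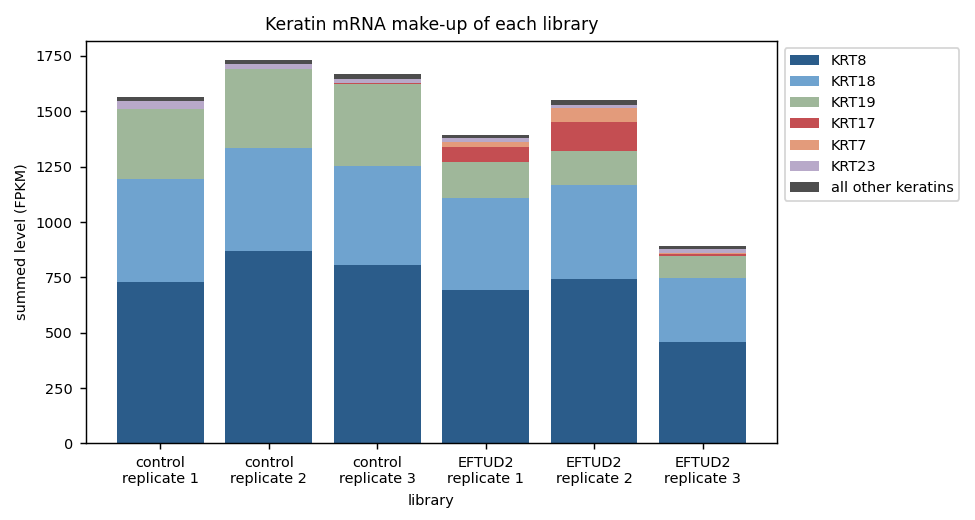
Summed level (FPKM) of KRT8, KRT18, KRT19, KRT17, KRT7, KRT23 and all other keratins in each of the 6 libraries, as stacked bars. The height of a bar is the sum over all keratins of that library, so the bars differ in height. As a share of its bar, KRT8 and KRT18 are similar in all libraries, and KRT19 goes from 20.1% to 22.4% in controls to 9.91% to 11.7% with EFTUD2. KRT17 and KRT7 are visible in EFTUD2 replicates 1 and 2.

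The keratin genes lie in a type I cluster on chromosome 17 and a type II cluster on chromosome 12, the latter also holding KRT18. Positions are those of GENCODE 29 on GRCh38, matched by symbol, and a gene annotation used for counting was not given in the sources used here. KRT19 (chr17:41523617-41528308, minus strand) and KRT15 (chr17:41513743-41522529, minus strand) are neighbours 1087 bases apart with no protein-coding gene between them, and both were lower in every EFTUD2 library. KRT16 (chr17:41609778-41615899) and KRT17 (chr17:41619441-41624842), both on the minus strand, are 3541 bases apart. KRT17, higher in every EFTUD2 library, lies 91.1 kb from KRT19, with 3 protein-coding genes between them. KRT23 (chr17:40922696-40937634, minus strand) lies farther off in the same cluster, on the KRT15 side. Of 41 table genes in the chromosome 17 window, 24 were keratins, 13 passed the filter on low values, and 5 of these 13 are described here.

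On chromosome 12, KRT8 (chr12:52897187-52949954, minus strand) and KRT18 (chr12:52948871-52952901, plus strand) overlap on opposite strands in this annotation. KRT7 (chr12:52232520-52252186, plus strand) lies 645 kb from KRT8, between KRT80 (chr12:52168996-52192000, minus strand), 40.5 kb away, and KRT81 (chr12:52285913-52291534, minus strand), 33.7 kb away. In all 3 genes EFTUD2 replicate 2 was the highest of the EFTUD2 libraries and replicate 3 the lowest, but KRT80 and KRT81 in EFTUD2 replicates 1 and 2 were near their control levels, and KRT7 was not. KRT86, next to KRT7 in this annotation, was at or under 0.18 FPKM in all libraries. All 19 table genes of this window were keratins, and the 5 that passed the filter are all described here.

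**Figure D4:**
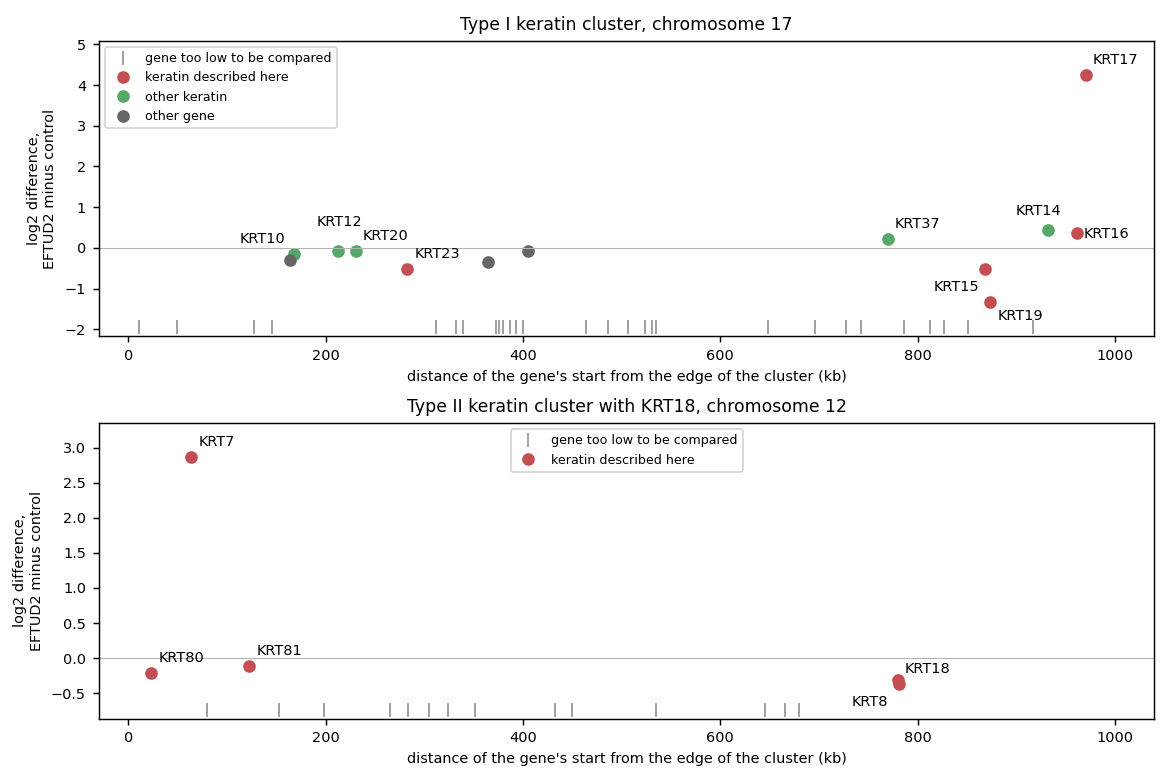
Log2 difference (EFTUD2 minus control, log2(FPKM + 1) scale) of genes in the keratin clusters of chromosome 17 and chromosome 12 against the distance of each gene's start from the edge of its cluster (kb); red points are the keratins described here, green points other keratins, grey points other genes, and ticks along the bottom genes too low to be compared. KRT17 at 4.25 and KRT19 at -1.34 lie within 100 kb of each other, and KRT7 at 2.87 lies between KRT80 at -0.21 and KRT81 at -0.11.

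Several keratins share sequence with other genes, and the way the counting split such reads was not given in the sources used here. Of the 50-base words in the principal GENCODE 29 transcript, 44.6% of those of KRT81 also occurred in transcripts of other genes, 38.4% in KRT86 alone. The value was 32.7% for KRT8 and 31.8% for KRT18, both of which have many processed pseudogenes, and 22.0% for KRT16, 11.3% of whose words are in KRT14. For KRT17 it was 16.0%, with 9.36% in the pseudogene KRT17P1 and 0.999% in KRT16. It was 1.79% for KRT19, 0.997% for KRT7, 0.42% for KRT80, 0.328% for KRT15 and 0% for KRT23. The shared words of KRT80 are in KRT8, a far more abundant transcript, so even this small share leaves the KRT80 level uncertain, and the same holds for KRT16 beside KRT17. The levels of KRT81, KRT8, KRT18 and KRT17 are uncertain as well, by an amount that these shares do not bound. The words that KRT7 and KRT15 share were found mostly in genes listed at low FPKM, keratins of the KRT6 group and KRT13 among them. KRT86, whose annotated span overlaps those of KRT7 on the same strand and KRT81 on the other, was at 0, 0 and 0.01 FPKM in controls, against 0.03, 0.18 and 0 FPKM with EFTUD2. KRT7 also overlaps the antisense gene KRT7-AS, and whether counting used strand was not stated.

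The other 33 keratin genes were low. Of these, 13 were listed at 0 in all 6 libraries, KRT5 among them, and 5 passed the filter. None passed the adjusted threshold with limma. At an unadjusted p under 0.05, 1 of the 5, KRT14, was higher, against 4.4% of all genes tested. KRT14 reached the filter only through its EFTUD2 values, so it could only come out higher, and nothing is read from that count. KRT10, the keratin of suprabasal epidermis, was the most abundant, at 11.8 ± 0.711 FPKM in controls and 10.6 ± 0.894 FPKM with EFTUD2 (SD, n = 3 each). KRT14, the basal partner of KRT5, was at 0, 0 and 0.01 FPKM in controls, against 0.29, 0.83 and 0.09 FPKM in EFTUD2 replicates 1, 2 and 3 (limma adjusted p = 0.402). All 3 EFTUD2 values of KRT14 were above the controls and replicate 2 was the highest, as for KRT17. KRT37 (0.05 to 0.37 FPKM in controls, 0.07 to 0.70 FPKM with EFTUD2) overlapped.

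Of 25 genes for desmosome, hemidesmosome and plakin proteins that bind keratin filaments, 19 were tested and none passed the adjusted threshold with limma (lowest adjusted p = 0.323). At an unadjusted p under 0.05 there were 3 lower and none higher, against 7.9% lower and 4.4% higher over all genes. Of the 19, 6 lay below all controls in every EFTUD2 library, against 19.4% over all genes, and none lay above. The median log2 difference was -0.17. This list and the lists that follow were chosen with earlier results of these data known. Nothing is therefore read from setting their counts beside the shares of all genes. Dystonin (DST) is a plakin with an epithelial form that joins keratins to hemidesmosomes, and its level here does not tell its forms apart. DST was at 37.4, 34.6 and 35.0 FPKM in controls, against 26.9, 25.3 and 22.9 FPKM with EFTUD2 (log2 difference -0.50, SE 0.10). The groups did not overlap, and the EFTUD2 libraries were close together, as they were for the KRT19 to KRT18 ratio. Desmoplakin (DSP), which anchors keratins at desmosomes, was at 117 ± 22.4 and 89.9 ± 9.24 FPKM and overlapped (limma adjusted p = 0.402). Desmocollin 2 (DSC2), a desmosomal cadherin, was at 15.4 ± 1.04 and 10.3 ± 2.31 FPKM without overlap (limma adjusted p = 0.402). Plakoglobin (JUP) and CD151 differed by less than 0.2 on the log2 scale.

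Among 15 other intermediate filament genes, 9 were tested and none passed the adjusted threshold with limma (lowest adjusted p = 0.346). At an unadjusted p under 0.05, 2 of the 9 were higher and 2 lower, against 4.4% higher and 7.9% lower over all genes. The 2 higher genes passed the filter on low values only through their EFTUD2 values. Vimentin (VIM), the filament protein of mesenchymal cells, was at 0.06, 0.08 and 0.12 FPKM in controls, against 23.2, 59.6 and 2.87 FPKM in EFTUD2 replicates 1, 2 and 3. Every EFTUD2 library was higher than every control, in the same order as for KRT17, and the log2 difference was 4.04 (limma SE 0.90, adjusted p = 0.346). Without EFTUD2 replicate 3, VIM passed the adjusted threshold. Nestin (NES), which co-assembles with vimentin, was at 20.1, 14.48 and 14.45 FPKM in controls, against 8.86, 5.78 and 9.43 FPKM with EFTUD2, without overlap. Lamin A (LMNA), of the nuclear lamina, was at 151 ± 6.44 and 130 ± 7.23 FPKM (limma adjusted p = 0.408).

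Of 19 transcription and splicing factors of simple and basal epithelium, 13 were tested and none passed the adjusted threshold with limma (lowest adjusted p = 0.402). At an unadjusted p under 0.05, 1 of the 13 was higher and 1 lower, near the 4.4% higher and 7.9% lower over all genes. TFAP2A, a factor of surface ectoderm and basal epithelium, was at 0.03, 0.02 and 0.02 FPKM in controls, against 3.51, 8.93 and 0.48 FPKM in EFTUD2 replicates 1, 2 and 3. These libraries stood in the order seen for KRT17, and TFAP2A passed the adjusted threshold without EFTUD2 replicate 3. TFAP2A passed the filter on low values only through its EFTUD2 values. ELF3, an epithelial ETS factor, overlapped, with its highest value of 34.6 FPKM in EFTUD2 replicate 3. HNF4A and SOX9, factors of hepatocytes and of duct cells, overlapped as well, with log2 differences of -0.23 and 0.02.

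Markers of the cell types in which these keratins are best known were summed beside them. Of 14 duct markers, besides KRT7 and KRT19, 12 were tested, 3 lay above all controls, against 7.92% over all genes, none lay below, and CFTR was at 0 in every library. Their sum was 493 to 815 FPKM in controls and 833 to 1574 FPKM with EFTUD2, carried by osteopontin (SPP1), which was at 173.1, 441.2 and 455.1 FPKM in controls and 1154, 1210 and 521 FPKM in EFTUD2 replicates 1, 2 and 3. EPCAM overlapped at 104 ± 15.3 and 97.4 ± 5.76 FPKM. The median log2 difference of the 12 was 0.08, and SPP1 was highest in EFTUD2 replicates 1 and 2, in which KRT7 was high. MUC1 was likewise higher there, at 0.75, 2.58 and 0.16 FPKM in EFTUD2 replicates 1, 2 and 3. SCTR was not, at 1.17, 0.62 and 3.80 FPKM, its highest value being in replicate 3. Of the 3 markers above all controls, all but SPP1 passed the filter only through their EFTUD2 values.

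Of 12 basal and squamous markers, 4 were tested, and KRT5 and PKP1 were at 0 in all libraries. TP63, the defining factor of basal cells, named here after its values were seen, was at 0.01 FPKM or less. The sum was 37.8 to 55.5 FPKM in controls and 31.9 to 75.8 FPKM with EFTUD2, most of it stratifin (SFN), whose groups overlapped. TRIM29 was at 0.65, 1.01 and 1.43 FPKM in controls and 5.34, 11.7 and 1.32 FPKM in EFTUD2 replicates 1, 2 and 3, the pattern of KRT7. S100A2, a calcium-binding protein of basal epithelium, was at 3.57, 4.41 and 3.71 FPKM in controls and 1.29, 1.08 and 0.54 FPKM with EFTUD2 (limma adjusted p = 0.207), the pattern of KRT19.

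Of 12 fibroblast markers 6 were tested. Their sum was 30.1 to 42.8 FPKM in controls and 49.7 to 93.6 FPKM with EFTUD2, with VIM in it, and 2 of the 6 lay above all controls. COL1A2 was at 0 in every library, and COL3A1, at 0 in the controls, had 0.62, 1.49 and 0.14 FPKM in EFTUD2 replicates 1, 2 and 3. The sum of 8 macrophage markers, most of it CD68, was 20.1 to 34.4 FPKM in controls and 29.4 to 37.9 FPKM with EFTUD2. TYROBP was at 0 in all libraries, and 1 of 4 tested, CD14, lay above all controls. The sum of 10 endothelial markers was 16.9 to 19.98 FPKM in controls and 5.9 to 11.4 FPKM with EFTUD2, most of it ESAM, and of 6 tested 2 lay above and 2 below all controls. Over all genes tested, 7.92% lay above and 19.4% below all controls. Some of the markers above, VIM and COL3A1 among them, passed the filter only through their EFTUD2 values, and nothing is read from these counts. No marker of any of these lists passed the adjusted threshold with limma. Their part in the keratin values was not tested.

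The genes whose profile over the 6 libraries was most like that of a keratin were sought among 12548 genes whose mean reached 1 FPKM, by the root mean square difference of centred log2(FPKM + 1) values. The 6 points of a profile share their libraries and the group difference, so likeness is a description. For KRT8 the nearest were ECD, SSX2IP, GSK3A, IRAK1 and BCAP29, ECD differing by 0.0122 on the log2 scale. None of these is on the list of filament partners, and all 5 lay within 0.0279 of the shallow KRT8 profile. For KRT19 they were S100A2 (0.0891), ESAM (0.112), the transcription factor SOX4 (0.148), the protease-activated receptor F2RL1 (0.183) and the scaffold AKAP12 (0.219).

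For KRT17 the nearest were VIM (0.186) and lactate dehydrogenase B (LDHB, 0.201), then BASP1 (0.440), HOTS (0.521) and LBP (0.592). HOTS is annotated antisense to H19, and reads of such a pair cannot be told apart without strand. For KRT7 they were placental alkaline phosphatase (ALPP, 0.451), OASL (0.465), BASP1 (0.473), 1 gene known only by the sequencing provider's number (0.490) and annexin A1 (ANXA1, 0.551). BASP1, a membrane-bound protein of the cell cortex, was near to both KRT17 and KRT7. The 3 nearest genes were closer to KRT17 than the 3 nearest to KRT7, while the other 2 were farther.

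**Figure D5:**
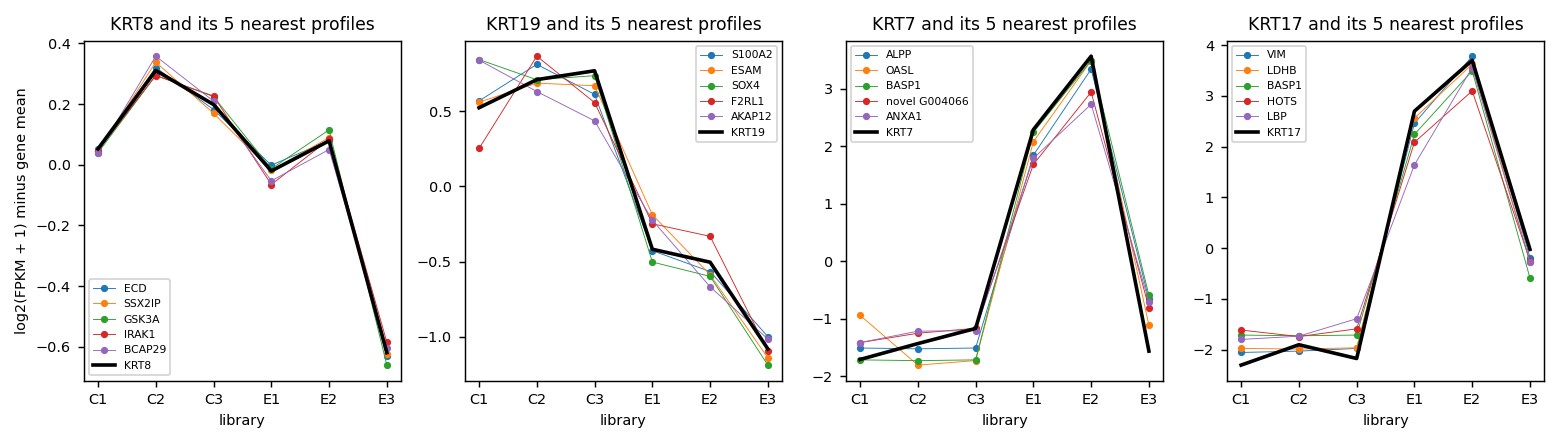
Log2(FPKM + 1), centred on the gene's own mean, of KRT8, KRT19, KRT7 and KRT17 (heavy line) and of the 5 genes nearest to each (thin lines) in the 6 libraries, 1 panel per keratin; lines join the libraries of a gene and mark no order. KRT17 and VIM (root mean square difference 0.186) are low in all controls and highest in EFTUD2 replicate 2, and KRT19 and S100A2 (0.0891) are low in all 3 EFTUD2 libraries.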

How the data were processed

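Gene expression was measured by poly-A RNA sequencing in 6 Hep G2 libraries, 3 control and 3 EFTUD2, grouped by their labels. The authors deposited 1 table of FPKM per gene, rounded to 2 decimals. The submitters' processing notes name HISAT2, Bowtie2, RSEM and DESeq2 without versions or roles, and the build hg38. The annotation and the handling of strand are not given in the sources used here. Without counts, no count model was run and depth is unknown.

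Differences were computed with limma 3.58.1 (R 4.3.3, trend on) on log2(FPKM + 1) over 17222 genes whose mean reached 0.1 FPKM, all 6 libraries, group only, with Benjamini-Hochberg adjustment over all genes tested. Fold changes on that scale understate the change of low genes. The fit was tested on simulated data with independent noise of the same SD in both groups. Those data held no library that stood apart over many genes, as EFTUD2 replicate 3 does. An exact permutation test of 3 against 3 libraries cannot go below p = 0.1. Tables were handled with Python 3.11.15 and pandas 2.3.3, figures with matplotlib 3.10.9, and positions and shared 50-base words were taken from GENCODE 29.

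The 10 keratins and the gene lists were chosen with earlier results of these data known. Named genes were the 10 keratins, EFTUD2, the 3 genes with the highest mean and the 3 with the greatest absolute log2 difference of each list (some left unnamed here), and the 5 nearest profiles of KRT8, KRT19, KRT7 and KRT17. KRT5, PKP1, TP63, CFTR, COL1A2, TYROBP and KRT86 were named after their values were seen. Alternatives were 2 other pseudocounts, no filter and a mean of at least 1 FPKM, median-of-ratios, quantile and common-sum scaling, a replicate block, and each library left out in turn. The symbols of 26 rows are dates in the table, and none is a keratin.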

Additional observations from a re-analysis of the deposited data

How the results depend on the processing

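The adjusted count was 0 of 17222 genes in every setting except without EFTUD2 replicate 3, where it was 131 (119 higher, 12 lower), so leaving out 1 library gave 0 to 131. VIM (1 of the other filament genes) and TFAP2A (1 of the regulators) were among these, with a range of 0 to 1 for both lists. Other keratins and filament partners had 0 in all settings run. The fit with a replicate block called 0 genes in every list. Same-numbered libraries had correlations of their deviations of -0.299, 0.353 and -0.094, and libraries of unlike number had -0.397 to 0.382. These values gave no sign of pairing by number, but they cannot show how the libraries were handled. Of the 10 keratins, 1 lay above all controls, against 7.92% of all genes tested. Without EFTUD2 replicate 3 it was 3, against 14.7% (range 1 to 3), and KRT16 among these passed the filter only through its EFTUD2 values. Below all controls lay 4, against 19.4%, or 6 without control replicate 1 or without EFTUD2 replicate 2. The share of all genes was not computed for the settings that gave 6, so nothing is read from that count. The counts above and below all controls were added after the data were seen, and they were not repeated under another scaling. KRT8 ranged from -0.55 to -0.16 over its alternatives, KRT18 from -0.42 to -0.13, KRT19 from -1.46 to -1.13, KRT23 from -0.64 to -0.27, KRT80 from -0.38 to -0.08, KRT7 from 1.80 to 4.36 and KRT17 from 3.46 to 5.33. For KRT8 and KRT18, median-of-ratios scaling gave -0.26 and -0.19, and quantile normalization gave -0.55 and -0.42. With pseudocounts of 0.1 and 0.01, KRT16 was at 1.497 and 3.03, KRT15 at -1.15 and -1.32, and KRT81 at -0.44 and -0.71. KRT81 reversed to 0.0015 without EFTUD2 replicate 3, and leaving out any 1 library gave -0.23 to 0.0015. At a mean of at least 1 FPKM, KRT15, KRT16 and KRT81 have no value. Levels under 1 FPKM rest on few fragments at a depth that is unknown, and the cause of what sets EFTUD2 replicate 3 apart was not tested.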
